A study of Mus musculus with 2 samples.

Results

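The MHC class II genes described here are the 8 mouse genes H2-Aa, H2-Ab1, H2-Eb1, Cd74, Ciita, H2-DMa, H2-DMb1 and H2-DMb2. They were taken as a named list that sets no threshold on any measured value, and all 8 were present among the 31053 genes in the count files. They were followed in every droplet barcode that held at least 2000 UMIs (unique molecular identifiers, tags that let each captured RNA molecule be counted once) and at most 20% UMIs of mitochondrial genes.

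MHC class II molecules are heterodimers that carry peptides of extracellular origin to the cell surface, where CD4+ T cells read them. H2-Aa and H2-Ab1 encode the alpha and beta chains of the I-A molecule, and H2-Eb1 encodes the beta chain of I-E, whose alpha chain gene is not expressed in C57BL/6 mice. Cd74 is the invariant chain that occupies the peptide groove during transport. H2-DM, made of H2-DMa with either H2-DMb1 or H2-DMb2, exchanges the invariant chain remnant for peptide, and Ciita is the transactivator that these promoters depend on. In the gut, B cells, macrophages and dendritic cells are the constitutive sources, and absorptive epithelial cells and some vascular cells can also make class II.

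The data were 2 single-cell RNA-seq libraries of intestinal lamina propria cells from C57BL/6 mice, 1 library per genotype. The labels give an age of 11 weeks, and the study's text is not uniform on the age. Both genotypes carried the ApcMin/+ mutation, which predisposes to intestinal adenomas. ApcMin mice had the genotype ApcMin/+;Lef1 +/+, without Cre. VApcMinL mice had ApcMin/+;Lef1 fl/fl; Villin-Cre, in which the Villin promoter limits the deletion of Lef1, a transcription factor of the Wnt pathway, to intestinal epithelial cells. How many mice were pooled into a library is not stated in the sources used here. Since each genotype has a single library, differences between the libraries have no replicate check and were not tested, and genotype cannot be told apart from mouse or dissection. All intervals below are 95% intervals that cover counting error only.

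The rule left 7038 ApcMin cells with a median of 10330.5 UMIs and 7399 VApcMinL cells with a median of 8216 UMIs, and 21 barcodes occurred in both libraries. Each cell was placed in a class by marker genes, none of which is an MHC class II gene. A marker was found when it had at least 1 UMI and a larger share of the cell's UMIs than of the empty droplets of that library. At least 3 markers were needed, and a cell with at least 3 markers of a second class was called mixed and left out of the classes. This gave 623 ApcMin and 328 VApcMinL B-like cells, 201 and 203 myeloid-like cells, 48 and 309 epithelial-like cells, 155 and 717 endothelial-like cells, and 2894 and 3254 fibroblast-like cells. The defining markers were present in each class, among them Ms4a1 in B-like cells, C1qa in myeloid-like cells, Epcam in epithelial-like cells, Pecam1 in endothelial-like cells and Pdgfra in fibroblast-like cells. The sort had selected against EpCAM and against CD45, the product of Ptprc, yet Ptprc had a UMI in 592 of 623 ApcMin and 309 of 328 VApcMinL B-like cells and Epcam in 95.8% and 99.0% of epithelial-like cells, so these classes went against the sort label. The mixed cells, 826 in ApcMin and 1038 in VApcMinL, held 23.7% and 25.9% of all member UMIs in cells. Pairs that included B or myeloid markers accounted for 96.6% and 94.3% of these UMIs.

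Of the 8 genes, 6 lie on chromosome 17 of GRCm38 within 197 kb, chr17:34119541-34316674, in the order H2-DMa, H2-DMb2, H2-DMb1, H2-Ab1, H2-Aa and H2-Eb1. Ciita (chr16:10480059-10528418) and Cd74 lie on other chromosomes. RefSeq promoter sequences on GRCm38 were at hand for 5 members, in 6 entries because H2-DMa has 2. They were searched on both strands over the 250 bases before the start for the X box core, the element bound by the RFX complex, and for the Y box CCAAT, the element bound by NF-Y. The upstream sequences below are shown because these elements are shared by class II promoters, with the matches in capitals. The H2-DMb1 stretch is cut to the 30 bases around its X box, from -105 to -76, so its Y box is not in it. A match on the opposite strand reads ATTGG for the Y box.

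H2-Eb1 (chr17:34305707-34305866, plus strand): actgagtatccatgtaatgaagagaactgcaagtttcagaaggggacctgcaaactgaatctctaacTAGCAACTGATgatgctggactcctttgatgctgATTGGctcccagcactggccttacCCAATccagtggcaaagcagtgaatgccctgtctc
H2-DMb1 (chr17:34153086-34153115, plus strand): aggtttaccTAGTAACTGATgatgctaggc
H2-Aa (chr17:34287824-34287983, minus strand): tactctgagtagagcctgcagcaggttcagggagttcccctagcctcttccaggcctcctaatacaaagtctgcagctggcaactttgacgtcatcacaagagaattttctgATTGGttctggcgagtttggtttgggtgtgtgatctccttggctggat
H2-DMb2 (chr17:34145089-34145235, plus strand): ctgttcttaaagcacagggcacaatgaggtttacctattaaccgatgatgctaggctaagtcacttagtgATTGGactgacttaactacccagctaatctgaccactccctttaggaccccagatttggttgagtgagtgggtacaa

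The X box core matched in H2-Eb1, from -93 to -83 relative to the start, and in H2-DMb1, from -96 to -86. Of all 32851 promoters of the same length, 0.603% held this match. Only exact matches were counted, so a promoter without a match may still hold a variant of the element. The Y box matched in H2-Aa at -48, in H2-Eb1 at -59 and -35, in H2-DMb1 at -61, in H2-DMb2 at -90 and in 1 of the 2 H2-DMa entries at -198. Because 33.8% of all promoters hold a CCAAT in this window, a Y box match alone sets few promoters apart. H2-Eb1 and H2-DMb1 held exact matches of both elements, as did 59 of the 32851 promoters. These matches are descriptions of letters and not measured binding.

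Member UMIs were concentrated in myeloid-like and B-like cells. Levels are given as CPM, counts per 1000000 UMIs, with the UMIs of a gene and of all genes summed over the cells of a class and library. The 3' assay counts molecules and is not scaled by gene length. The 8 members together reached 35296.5 CPM in ApcMin and 37673 CPM in VApcMinL myeloid-like cells, and 23605 and 22639 CPM in B-like cells. Myeloid-like cells thus exceeded B-like cells 1.495-fold (1.48 to 1.51) in ApcMin and 1.66-fold (1.64 to 1.69) in VApcMinL. Fibroblast-like cells had 68.6 and 70.9 CPM and erythroid-like cells, which should make no class II, had 53.4 and 61.4 CPM.

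**Figure D1:**
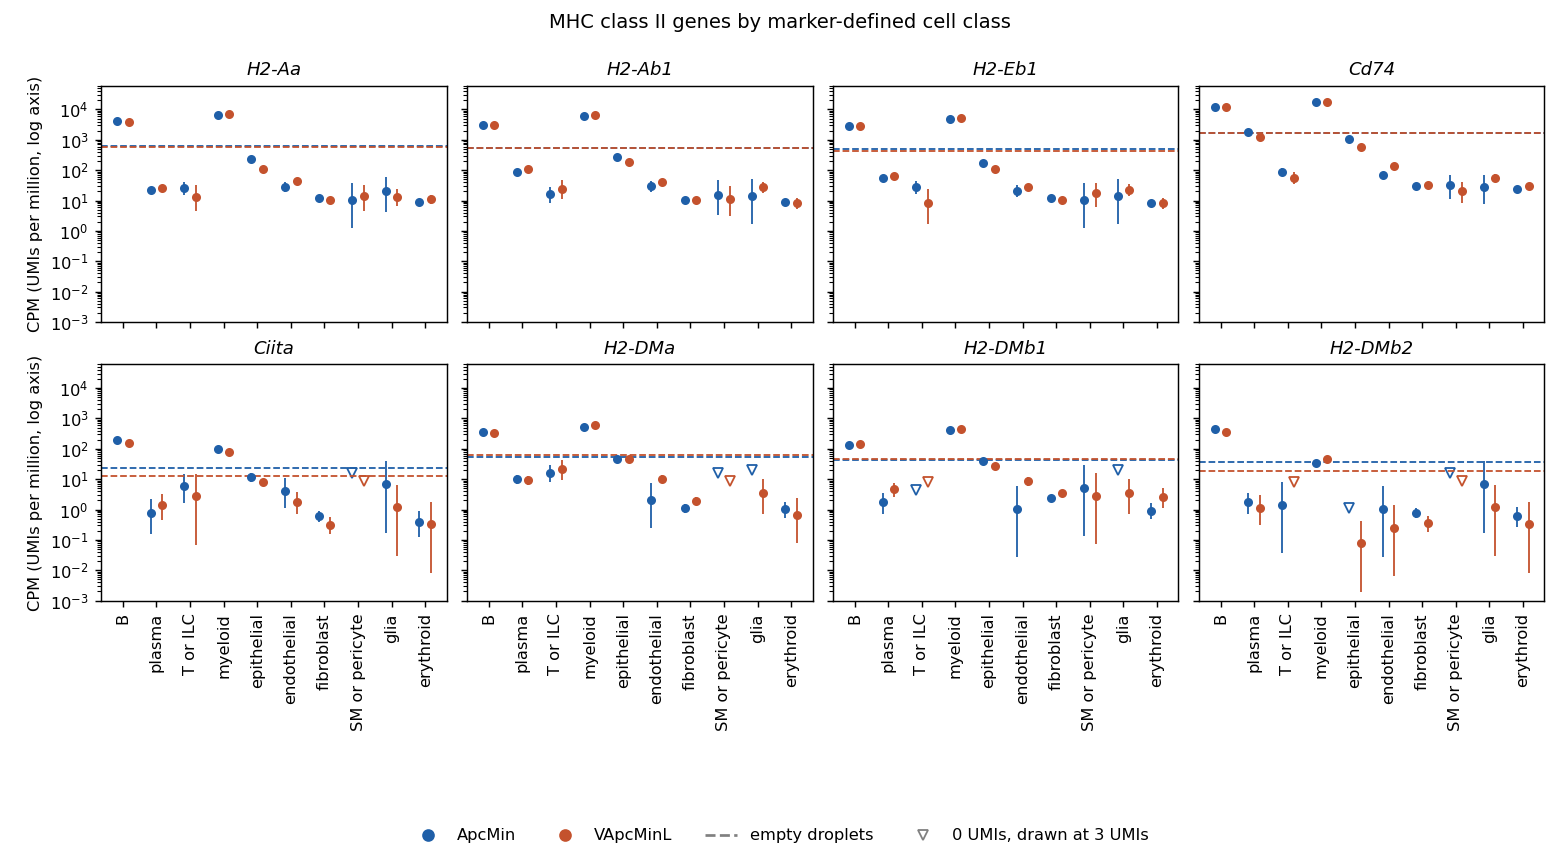
CPM (log axis) of each member in 10 marker-defined classes, with points for the 2 libraries, triangles at the level of 3 UMIs where none was found, bars for 95% Poisson intervals and dashed lines for the empty droplets of each library. In all panels the B-like points lie above the dashed lines, and the epithelial-like points lie below them. SM, smooth muscle.

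The antigen-presenting chains and the invariant chain gave most of these molecules. Cd74 was the most abundant member in both classes, at 16983 and 18047 CPM in myeloid-like and 12451 and 11810 CPM in B-like cells (ApcMin and VApcMinL). H2-Aa stood at 6329 and 6867 CPM in myeloid-like and 4112 and 3989 CPM in B-like cells. H2-Ab1 stood at 5997 and 6452 CPM in myeloid-like cells and at 3124 and 3035 CPM in B-like cells. For these genes and for H2-Eb1 the order was myeloid-like, then B-like, with intervals that did not overlap in either library. H2-Eb1 had 4901 and 5098 CPM in myeloid-like and 2796 and 2825 CPM in B-like cells. A UMI of H2-Aa was found in 191 of 201 ApcMin and 198 of 203 VApcMinL myeloid-like cells, and in 616 of 623 and 320 of 328 B-like cells.

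Empty droplets, taken as the 45001 barcodes of ranks 45000 to 90000 by UMIs, also carried these RNAs, at 3508 CPM for the summed members in ApcMin and 3285 CPM in VApcMinL. All 8 members were at least 2-fold above the empty droplets in B-like cells of both libraries, a size that 46.6% of the 3190 genes with at least 200 UMIs also reached. In myeloid-like cells 7 of 7 members with at least 200 UMIs were, beside 37.8% of 3032 genes. The remaining member, H2-DMb2, had fewer UMIs there and lay below the empty droplets in ApcMin. The summed members were 6.73-fold and 6.89-fold above the empty droplets in B-like cells, and 10.1-fold and 11.5-fold in myeloid-like cells. Both classes thus stood above the RNA found in droplets without a cell. In epithelial-like, endothelial-like and fibroblast-like cells 0 of 6, 0 of 1 and 0 of 5 members with enough UMIs were 2-fold above the empty droplets. The backgrounds there were 26.7% of 6409, 45.3% of 4100 and 27.5% of 11332 genes.

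The 2 beta chains of H2-DM divided between the classes. H2-DMb2 was a gene of the B-like cells, at 435 and 349 CPM, against 33.9 and 45.0 CPM in myeloid-like cells. H2-DMb1 had the opposite order, with 413 and 456 CPM in myeloid-like and 130 and 141 CPM in B-like cells. The ratio of H2-DMb1 to H2-DMb2 UMIs was 0.298 and 0.404 in B-like cells and 12.2 and 10.1 in myeloid-like cells. Empty droplets lay between them, at 1.16 and 2.50. In epithelial-like cells there were 105 UMIs of H2-DMb1 and 0 of H2-DMb2 in ApcMin, and 363 and 1 in VApcMinL.

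**Figure D2:**
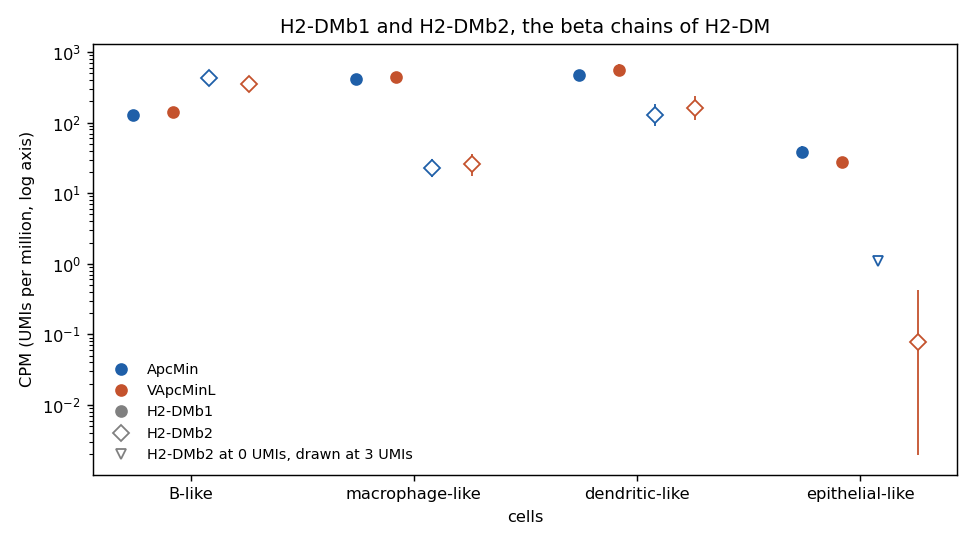
CPM (log axis) of H2-DMb1 (filled) and H2-DMb2 (open) in B-like, macrophage-like, dendritic-like and epithelial-like cells of both libraries, with 95% Poisson bars. H2-DMb2 is the higher of the pair in B-like cells and the lower elsewhere, and its 0 UMIs in ApcMin epithelial-like cells are drawn as a triangle at the level of 3 UMIs.

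Within the myeloid-like class the pooled level of H2-DMb2 was also higher in the dendritic-like than in the macrophage-like cells. The 15 ApcMin and 14 VApcMinL dendritic-like cells had 130 and 163 CPM of H2-DMb2, and the 180 and 183 macrophage-like cells 22.9 and 25.7 CPM. The dendritic-like level was 5.69-fold (3.57 to 8.97) and 6.37-fold (3.73 to 10.8) higher. It rests on 34 and 29 UMIs in dendritic-like and 50 and 33 UMIs in macrophage-like cells. A B marker was found in 116 of 201 and 94 of 203 myeloid-like cells, and was not counted by subtype. The summed members differed far less, at 35865 and 38869 CPM in dendritic-like and 35644 and 37721 CPM in macrophage-like cells. In the 5 granulocyte-like or monocyte-like cells 11 member UMIs were found in ApcMin (4 cells) and 0 in VApcMinL (1 cell). H2-DMb1 and H2-DMb2 are similar in sequence: 15.7% of the 91-base windows of the H2-DMb1 transcript recur in H2-DMb2, but none within the last 400 bases, where a 3' assay reads most. Of shorter windows in the last 400 bases of H2-DMb1, 7.69% of 50 bases and 14.0% of 30 bases do recur. In the last 400 bases of H2-DMb2 no window of these lengths recurs in H2-DMb1.

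H2-DMa, the alpha chain shared by both H2-DM forms, followed the antigen-presenting chains, with 540 and 630 CPM in myeloid-like and 357 and 336 CPM in B-like cells. Ciita did not. The transactivator was higher in B-like cells, at 201 and 154 CPM, than in myeloid-like cells, at 100.1 and 78.6 CPM. H2-Aa, H2-Ab1, H2-Eb1, Cd74, H2-DMa and H2-DMb1 were all higher in myeloid-like cells. The myeloid-like level of Ciita was 0.497 (0.428 to 0.577) and 0.509 (0.407 to 0.634) of the B-like level. Ciita and H2-DMb2 were thus the members with the highest level in B-like cells in both libraries.

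Plasma-like cells, the antibody-secreting descendants of B cells, had mainly Cd74, with lower levels of H2-Ab1 and H2-Eb1. They numbered 522 and 690 and held 1971 and 1451 CPM of the summed members, of which Cd74 made up 90.8% and 85.5%. Cd74 stood at 1790 and 1240 CPM. H2-Aa stood at only 21.4 and 25.5 CPM, and H2-Ab1 had 358 and 372 UMIs against 9762 and 5446 in B-like cells. Ciita had 3 UMIs in ApcMin and 5 in VApcMinL plasma-like cells, against 629 and 277 in B-like cells. H2-Ab1 exceeded H2-Aa 4.21-fold and 4.18-fold in UMIs there, whereas in B-like cells the same ratio was 0.760 and 0.761.

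For the non-immune classes the question was whether the members lay above what free RNA brings, that is RNA outside cells that is captured in any droplet. The share of free RNA in a class was estimated from genes the class should not make, immunoglobulin genes (Igkc, Igha, Jchain), hemoglobin genes or, outside the fibroblast-like cells, fibroblast genes (Col1a1, Col1a2, Dcn), relative to the empty droplets. The expected member UMIs are that share of the class's UMIs times the members' share of the empty droplets. In epithelial-like cells the estimate was 2.61% and 0.574% of UMIs by immunoglobulin genes 0.568% and 1.01% by hemoglobin genes, and 1.39% and 4.05% by fibroblast genes. The summed members stood 20.5-fold (ApcMin) and 57.3-fold (VApcMinL) above the level so expected by immunoglobulin genes, and 94.0-fold and 32.5-fold by hemoglobin genes. By fibroblast genes they stood 38.5-fold and 8.12-fold above it, so that the VApcMinL value depended most on the genes used. In endothelial-like cells these values were 1.80 and 1.62 by immunoglobulin genes 1.24 and 2.59 by hemoglobin genes, and 0.903 and 1.55 by fibroblast genes. In fibroblast-like cells they were 1.41 and 0.824 by immunoglobulin genes, and 1.30 and 1.29 by hemoglobin genes. The epithelial-like values were thus above 1 by every estimate in both libraries, the endothelial-like values by every estimate in VApcMinL but not in ApcMin, and the fibroblast-like values not by every estimate. For Cd74 in plasma-like cells the same measure gave 48.2 and 20.0 with hemoglobin genes, and 42.8 and 22.9 with fibroblast genes.

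**Figure D3:**
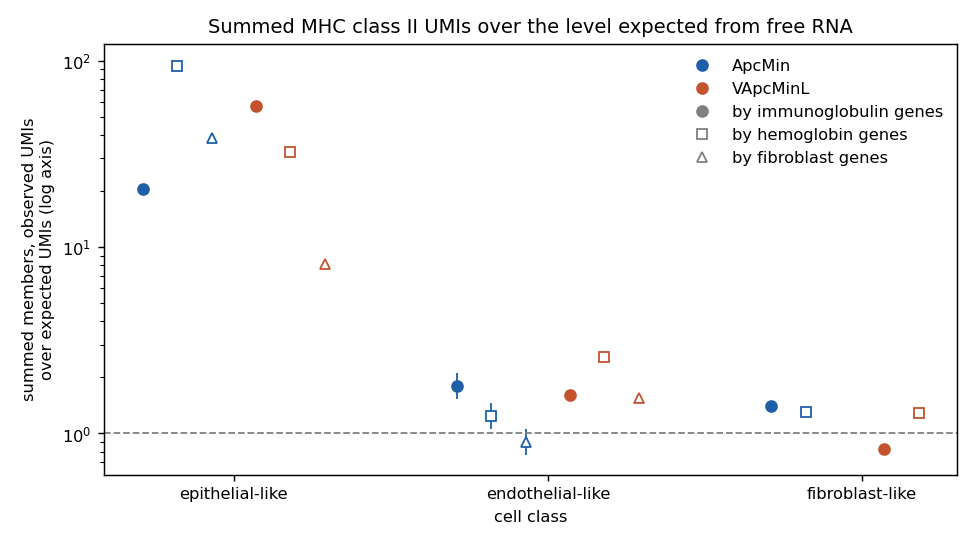
Observed UMIs of the summed members over the UMIs expected from free RNA (log axis) in 3 classes, for both libraries and for each set of genes used to estimate free RNA, with 95% Poisson bars. Epithelial-like cells lie between 8.12 and 94.0, endothelial-like cells between 0.903 and 2.59 and fibroblast-like cells between 0.824 and 1.41. All VApcMinL endothelial-like points lie above the dashed line at 1.

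Epithelial-like cells carried 7 of the 8 members. Cd74 had 1097 CPM in ApcMin and 595 CPM in VApcMinL, H2-Ab1 277 and 188 CPM, H2-Aa 233 and 106 CPM, and H2-Eb1 169 and 107 CPM. The H2-DM genes H2-DMa, with 47.6 and 47.4 CPM, and H2-DMb1, with 38.5 and 27.9 CPM, were also found. Ciita had 32 and 103 UMIs, which is 11.7 and 7.91 CPM and 15.0-fold to 106-fold above the level expected from free RNA. These cells were deep, with medians of 44330 and 42070 UMIs, and their median mitochondrial share was 11.1% and 11.8%, the highest of the classes described here. After each cell was thinned to 2000 UMIs, 64.6% and 57.6% of epithelial-like cells still had a member UMI, against 10.1% and 12.1% of fibroblast-like and 11.9% and 14.2% of erythroid-like cells. Ptprc had 2 and 5 UMIs in all epithelial-like cells, and in the 30 and 228 cells without any B or myeloid marker the summed members stood at 1690 and 1055 CPM, close to the 1874 and 1079 CPM of the whole class.

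The epithelial signal was unequal between cells and followed the subtype. Enterocyte-like cells, found by absorptive genes such as Apoa1, Fabp1 and Alpi, numbered 35 and 289 and had 3331 and 1158 CPM of the summed members. The 9 and 13 crypt-like cells, found by genes such as Lgr5, Olfm4 and Mki67, had 120 and 32.2 CPM. The enterocyte-like level was 27.8-fold (23.6 to 33.0) higher in ApcMin and 35.9-fold (24.8 to 54.1) higher in VApcMinL. The crypt-like sums rest on 145 and 28 member UMIs. Per crypt-like cell the level ranged from 9.04 to 1111 CPM in ApcMin, where 1 of 9 cells exceeded 1000 CPM. In VApcMinL it ranged from 0 to 352 CPM. The 9 ApcMin crypt-like cells had a median of 110610 UMIs, and those of VApcMinL 45347 UMIs. No doublet caller was run. Among enterocyte-like cells the level per cell ranged from 0 to 8862 CPM in ApcMin, with a median of 3019 CPM, and from 0 to 16907 CPM in VApcMinL, with a median of 659 CPM. More than 1000 CPM was found in 23 of 35 cells (65.7%) and 119 of 289 cells (41.2%). The 10 highest enterocyte-like cells held 67.3% of the subtype's member UMIs in ApcMin and 16.9% in VApcMinL.

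**Figure D4:**
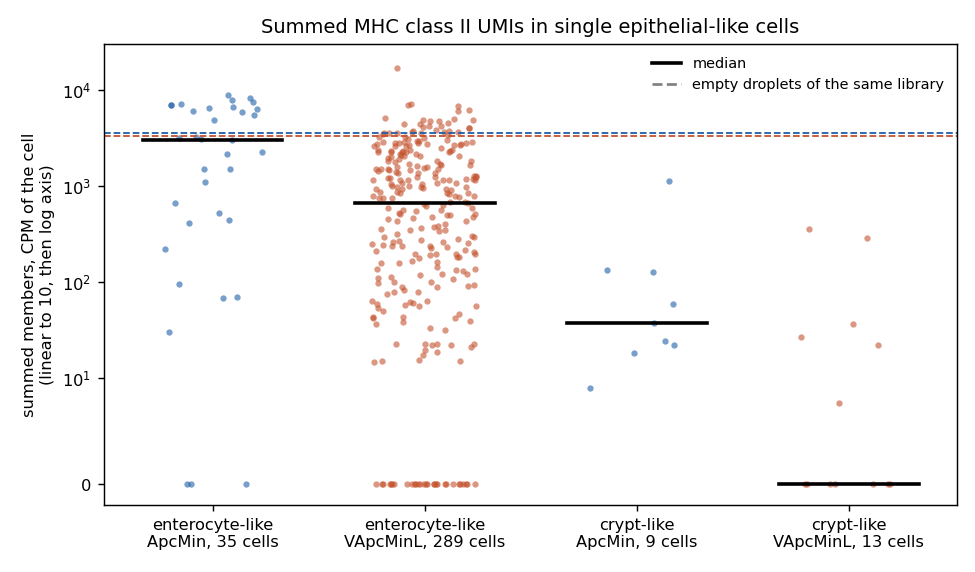
Summed members in single enterocyte-like and crypt-like cells, as CPM of the cell (linear to 10, then log axis), with the median as a black bar and the empty droplets of each library as dashed lines. Enterocyte-like medians are 3019 CPM in ApcMin and 659 CPM in VApcMinL, and crypt-like medians are 37.0 CPM and 0 CPM.

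Endothelial-like cells had low levels, with 150 member UMIs in ApcMin (157 CPM) and 1053 in VApcMinL (267 CPM). A member UMI was found in 43.9% and 43.2% of cells, against 31.3% and 31.4% of erythroid-like cells. Median depths were 5503 and 4348 UMIs in endothelial-like and 8379 and 5826 UMIs in erythroid-like cells. The summed CPM exceeded that of erythroid-like cells 2.94-fold (2.45 to 3.51) and 4.35-fold (3.72 to 5.10). These folds are not corrected for free RNA, which was unequal between the 2 classes. By fibroblast genes it was 4.95% and 5.25% of UMIs in endothelial-like and 1.80% and 4.19% in erythroid-like cells. By immunoglobulin genes it was 2.48% and 5.03% against 1.53% and 3.46%. Cd74 had 70.1 and 133 CPM, H2-Aa 28.2 and 43.2 CPM and H2-Ab1 29.3 and 41.6 CPM. H2-DMa had 2 and 41 UMIs, H2-DMb1 1 and 34 UMIs, Ciita 4 and 7 UMIs and H2-DMb2 1 UMI in each library. In VApcMinL the signal was concentrated in few cells: 31 of 717 cells with at least 4 members held 49.4% of the member UMIs, 5 of them had a B or myeloid marker and 1 had a Ptprc UMI. In ApcMin 2 of 155 cells had at least 4 members. Blood endothelial-like cells of VApcMinL had 341 CPM and lymphatic endothelial-like cells 103 CPM, a 3.32-fold difference (2.75 to 4.04), and in ApcMin the levels were 174 and 121 CPM, a 1.43-fold difference (0.968 to 2.16).

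Fibroblast-like cells, the largest class, stood at the level of free RNA for most members. Cd74 had 29.4 and 33.0 CPM, H2-Aa 12.2 and 10.4 CPM, H2-Ab1 10.2 and 10.8 CPM and H2-Eb1 11.9 and 10.7 CPM. These were 0.705-fold to 1.67-fold the expected level over both libraries and both estimates. H2-DMb1 was the exception, at 2.46 and 3.47 CPM, 4.14-fold and 2.79-fold above the expected level by immunoglobulin genes and 3.81-fold and 4.36-fold by hemoglobin genes. Its UMIs came from 89 and 109 cells. The H2-DMb1 level exceeded that of erythroid-like cells 2.65-fold (1.45 to 5.32) in ApcMin. In VApcMinL it was 1.34-fold (0.659 to 3.18), so the classes were not set apart there. Cells with at least 4 members were 20 of 2894 and 17 of 3254 and held 25.2% and 22.5% of the member UMIs, and 11 and 13 of them had a B or myeloid marker. Without cells that had such a marker, the summed members stood at 58.4 and 61.5 CPM.

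Between the libraries, no member of the B-like, myeloid-like, endothelial-like or fibroblast-like cells with at least 200 UMIs differed 2-fold. This was 0 of 8, 0 of 7, 0 of 1 and 0 of 5 members, where 1.35%, 1.91%, 1.98% and 3.04% of all genes with enough UMIs did. In epithelial-like cells 1 of 6 members, H2-Aa, was more than 2-fold lower in VApcMinL, beside 16.3% of all genes, a share near the background and therefore not a result about the members. The log2 ratio of H2-Aa, VApcMinL over ApcMin, was -1.14 (-1.28 to -1.01). It was -0.88 (-0.94 to -0.82) for Cd74, -0.66 (-0.82 to -0.51) for H2-Eb1, -0.56 (-0.67 to -0.44) for H2-Ab1, -0.47 (-0.78 to -0.14) for H2-DMb1 and -0.01 (-0.28 to 0.28) for H2-DMa. The median over these 6 members was -0.61 and over all 6409 genes -0.18. H2-Aa was within 2-fold in 3 of 15 other ways of processing, at -0.86 with classes set by clusters and at -0.98 both with mixed cells kept and without cells that had a B or myeloid marker.

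For the summed members the log2 ratio was -0.80 (-0.84 to -0.75) in epithelial-like cells, and within the enterocyte-like cells it was -1.52 (-1.57 to -1.48). In the 9 and 13 crypt-like cells, with 145 and 28 member UMIs, it was -1.89 (-2.53 to -1.30). Both subtypes thus differed more than the pooled class, whose value also depends on the mix of subtypes. Enterocyte-like cells were 35 of the 48 ApcMin and 289 of the 309 VApcMinL epithelial-like cells, and in them 5 of 6 members with at least 200 UMIs were more than 2-fold lower in VApcMinL, beside 3.7% of 5599 genes that differed 2-fold either way. This count was made after the ratios had been seen. Neither the count nor the enterocyte-like ratios were recomputed under the other ways of processing. The ratio was -1.89 for H2-Aa, -1.60 for Cd74, -1.41 for H2-Eb1, -1.30 for H2-Ab1, -1.21 for H2-DMb1 and -0.62 (-0.91 to -0.33) for H2-DMa. The median over these members was -1.36 and over all genes tested -0.07, and the ApcMin values rest on 35 cells of 1 library. Lef1 itself had 21 UMIs in 3 of 48 ApcMin epithelial-like cells (7.69 CPM) and 24 in 8 of 309 VApcMinL epithelial-like cells (1.84 CPM). In B-like cells the summed ratio was -0.06 (-0.08 to -0.04), in myeloid-like cells 0.09 (0.08 to 0.11) and in fibroblast-like cells 0.05 (-0.03 to 0.13), and the sign of each turned under some of the other ways of processing. Ciita was lower in VApcMinL in B-like cells, at -0.38 (-0.59 to -0.18), and in myeloid-like cells, at -0.35 (-0.68 to -0.03). H2-DMb2 was lower in B-like cells as well, at -0.32 (-0.46 to -0.18), but not in myeloid-like cells, at 0.41 (-0.08 to 0.89). These ratios of single members were not recomputed under the other ways of processing.

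The endothelial-like ratio, 0.77 (0.52 to 1.02), depended on how mixed cells were treated and became -2.02 when they were kept. Among the cells then added, 22 in ApcMin held 1845 member UMIs, of which 3 cells with myeloid markers held 1364 and 3 cells with B markers 448, against 150 in all ApcMin endothelial-like cells. In VApcMinL 87 such cells held 860 UMIs. With classes set by clusters the ratio was -1.19.

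**Figure D5:**
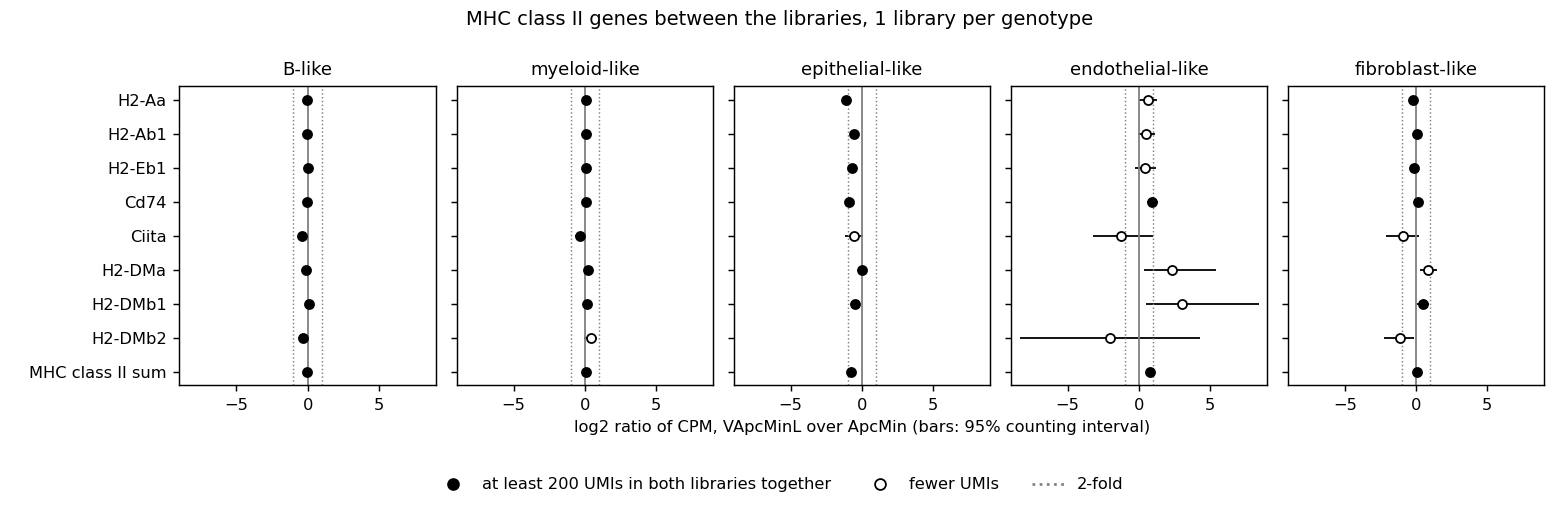
Log2 ratio of CPM, VApcMinL over ApcMin, of each member and of their sum in 5 classes, with 95% counting intervals and dotted lines at 2-fold. Filled points have at least 200 UMIs in both libraries together, and pairs with 0 UMIs in a library are not drawn. Points of B-like and myeloid-like cells lie within 2-fold of 0, and the summed members are at -0.80 in epithelial-like cells.

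Other genes of antigen presentation were read from a list of 41, of which 37 were in the files. In B-like cells 25 of them had at least 200 UMIs, and 0 differed 2-fold between the libraries. The counts were 0 of 24 in myeloid-like, 3 of 23 in epithelial-like, 1 of 21 in endothelial-like and 0 of 30 in fibroblast-like cells. Over all genes the shares were 1.35% in B-like, 1.91% in myeloid-like, 16.3% in epithelial-like, 1.98% in endothelial-like and 3.04% in fibroblast-like cells, so the epithelial count is near its background and is no result about the list. For completeness, its 3 genes were lower in VApcMinL: the class II promoter factors Creb1, at -1.48, and Rfxap, at -1.10, and the lysosomal protease Ctsl, at -1.36. The endothelial gene was Cd274, the checkpoint ligand PD-L1, at 1.26. The genes of H2-O, the inhibitor of H2-DM, followed H2-DMb2: H2-Oa had 218 and 224 CPM in B-like against 29.9 and 29.6 CPM in myeloid-like cells, and H2-Ob 357 and 314 against 14.1 and 15.5 CPM. Ctss, the protease that trims the invariant chain, had the opposite order, with 352 and 278 CPM in B-like and 2332 and 2174 CPM in myeloid-like cells. The costimulatory gene Cd86 had 145 and 133 CPM in B-like and 203 and 255 CPM in myeloid-like cells, but only 1 UMI in the epithelial-like cells of each library.

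Across 20 points, the 10 classes in the 2 libraries, 13175 genes with enough UMIs were compared with the members by Pearson correlation of log2(CPM + 1) with the mean of the standardized members. The most similar gene that is no member was Ildr1, at 0.97, followed by Gm6377, Tlr1, Syk, Fgd2, Wdfy4, Tlr7, Kynu, Pkib and March1, at 0.94 to 0.91. Ildr1, Tlr1, Kynu and Tlr7 had only 242, 244, 260 and 312 UMIs over all points, near the minimum of 200. Their places in the order thus rest on few molecules. The other listed genes had 611 to 2870 UMIs. The members themselves ranged from 0.86 for H2-DMb2 to 0.99 for H2-Eb1. Each member is part of the mean it was compared with, so these values cannot be set beside those of other genes. The points share libraries and depth, and the values describe these points only.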

How the data were processed

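The authors deposited raw UMI counts per gene and droplet barcode, not normalized and without cell calling. Reads were aligned to GRCm38 with Cell Ranger (2.1.1 in the submitters' processing notes, 3.1.0 in the file headers). The total was 93203061 UMIs in ApcMin and 101609269 in VApcMinL. Barcodes needed at least 2000 UMIs and at most 20% mitochondrial UMIs, which left out 120 and 633 barcodes. No doublet caller was run, and mixed cells were set aside instead. For each class of a library, UMIs were added up over cells and divided by their total (CPM), with exact Poisson intervals for levels, Clopper-Pearson intervals for shares and exact conditional binomial intervals for ratios. Gene positions are from GENCODE vM21 on GRCm38. The members, markers and gene lists were chosen with earlier results of these data known, and the rule for mixed cells was tightened after marker detection had been seen and before member levels were read. All 8 members are named, the wider list by its largest and smallest values and the genes of similar pattern by the 10 highest correlations. For the comparison by clusters, cells were clustered without the members and the wider list (scanpy 1.11.5). Calculations used Python 3.11.15, numpy 2.4.6, scipy 1.17.1 and pandas 2.3.3 and were tested on simulated data.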

Additional observations from a re-analysis of the deposited data

Results flagged for a closer look

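Member UMIs were also present in barcodes that the comparisons leave out. Barcodes of at least 500 and under 2000 UMIs numbered 1059 in ApcMin and 2180 in VApcMinL, and their summed members stood 2.15-fold (ApcMin) and 3.87-fold (VApcMinL) above the empty droplets, at 7551 and 12713 CPM. By the same marker rule, 115 and 398 of these barcodes were myeloid-like and held 56.6% and 84.1% of the member UMIs there. The mixed cells of ApcMin stood 1.24-fold above the empty droplets, and those of VApcMinL at 0.945.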

How the results depend on the processing

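No paired analysis was possible because a genotype is a single library. The count of members 2-fold above the empty droplets is 8 in B cells, 7 in myeloid cells, where H2-DMb2 is not, and 0 in the other classes. These counts are full, nearly full or 0, so that their range under the alternatives (7 to 8 in B cells) says little about stability. The summed log2 ratios (VApcMinL over ApcMin) were recomputed 75 times, and 17 turned sign. The epithelial ratio kept its sign in 15 of 15 alternatives, from -1.56 to -0.58. These alternatives covered the whole epithelial class and not the enterocyte-like cells alone. The cause of the changes was not tested, except that the mixed cells added to the endothelial class are counted in the report. The ratios outside their counting interval were, from 1000 UMIs, myeloid 0.23; from 5000 UMIs, B -0.19, myeloid -0.015, endothelial 0.48 and fibroblast -0.12. At most 10% mitochondrial UMIs gave myeloid 0.11 and epithelial -0.58, and no limit gave 0.074 and -0.92. Leaving out the top and bottom 1% by detected genes gave B 0.068, myeloid 0.0084 and epithelial -1.56. Keeping mixed cells gave B -0.080, myeloid -0.10, epithelial -0.68, endothelial -2.02 and fibroblast -0.25. With 2 markers the ratios were B -0.037, myeloid -0.020, epithelial -1.27 and fibroblast 0.48, and with 5 markers, which also relaxes the rule on mixed cells, B -0.023, myeloid 0.021, endothelial -1.999 and fibroblast -0.056. Means over cells gave B 0.062, myeloid 0.15, epithelial -1.06 and fibroblast 0.28. Thinning to 2000 UMIs gave B 0.057, myeloid 0.13, epithelial -1.02 and fibroblast 0.40. CPM without mitochondrial, hemoglobin, immunoglobulin and Gm42418 UMIs gave myeloid 0.13. Classes by clusters gave B 0.056, myeloid -0.10, epithelial -0.60, endothelial -1.19 and fibroblast -0.066. The alternatives named next, and all those of H2-Aa, were chosen after seeing the data. Without cells that had a B or myeloid marker of another class, the ratios were B 0.043, myeloid 0.33 and epithelial -0.68. With cells called mixed only where 2 times the markers of the second class reached those of the first, they were myeloid 0.050 and endothelial -1.998. The number of genes past 2-fold between the libraries, 43 in B, 58 in myeloid, 1043 in epithelial, 81 in endothelial and 345 in fibroblast cells, became 215, 280, 2437, 328 and 860 from 50 UMIs, and 2001, 1976, 5040, 2037 and 3074 from 1 UMI in each library. Of the folds over free RNA, 55 of 90 moved beyond counting error when free RNA was estimated from hemoglobin genes or, as an alternative chosen after seeing the data, fibroblast genes, and of the shares of cells 67 of 90 did on thinning.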
